A study of Mus musculus with 6 samples.

Results

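The genes described here copy DNA or carry a cell from G1 into S phase. They are 37 named genes, out of 18193 genes with a probe set that the platform annotation gives to a single symbol. Each gene was read from its brightest probe set, by the mean level of the 6 arrays. Of the 37, 36 had such a probe set and 35 were bright enough to be tested. Chaf1a, for the large subunit of the histone chaperone CAF-1, was not analysed here for want of a probe set of its own symbol. Tyms, for thymidylate synthase, fell below the filter on dim genes, a mean log2 level of 4.97. It read 4.45 and 4.48 on the 1-week arrays, 3.61 and 3.92 on the 2-week vehicle arrays and 4.22 and 3.96 on the GW2580 arrays.

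The arrays came from lung metastases of MVT1, a mouse mammary tumour cell line tagged with green fluorescent protein (GFP), in syngeneic FVB/N mice. The cells were injected through a vein, and GFP-positive cells were later sorted from the lungs. There were 3 groups of 2 arrays: mice on vehicle taken after 1 week, mice on vehicle taken after 2 weeks, and mice taken after 2 weeks that had received GW2580 by gavage each day at 160 mg per kg. GW2580 inhibits the kinase of the CSF1 receptor, which macrophages carry, and gavage started 1 week after injection. If vehicle was also given from then on, the 2 vehicle groups differ in days of gavage as well as in time. These cannot be told apart in the comparison of 2 weeks with 1 week. All 3 groups bore the same tumour line. Each vehicle group came from 2 mice. The sources used here give neither the age of the mice nor how many stand behind the GW2580 arrays, so p-values there measure only the spread between arrays, which may be technical. Levels are RMA log2 values, and a difference of 1 is a 2-fold change.

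DNA replication is licensed in G1, when the origin recognition complex, Cdc6 and Cdt1 load the Mcm2 to Mcm7 helicase onto DNA. At the G1/S boundary, cyclin E with Cdk2 and the kinase Cdc7 activate this helicase through Mcm10, Cdc45 and the GINS complex, and the polymerases, the sliding clamp PCNA and its loader then build the fork. Most of these genes are known targets of E2F transcription factors, which the retinoblastoma family represses until cyclin-dependent kinases release them. Their transcripts are therefore higher in cycling cells than in resting ones, and they are widely used as markers of proliferation.

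Promoter sequences of the genes are shown because E2F sites are the feature these genes are best known to share. RefSeq start sites (GRCm38.p6) gave 37 windows of 250 bases before a start for 31 of the 37 genes. The E2F letters searched, on both strands, were TTTCCCGC, TTTGGCGC, TTTCGCGC and TTTGCCGC. They were found in 8 of 37 windows (21.6%), against 1.86% of all 32851 windows. The genes were Cdc6, Mcm5, Mcm6, Mcm7, Orc1, Pola1, Rfc3 and Uhrf1. The stretches around the matches, 5′ to 3′ on the strand of the gene, are given with the matched letters in capitals. Uhrf1 is not printed because its match lies downstream of another start of that gene.
Cdc6 (chr11:98907987-98908046, plus strand): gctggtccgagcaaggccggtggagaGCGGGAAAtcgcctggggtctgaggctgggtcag
Orc1 (chr4:108579401-108579453, plus strand): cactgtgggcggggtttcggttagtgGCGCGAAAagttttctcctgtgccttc
Mcm5 (chr8:75109330-75109393, plus strand): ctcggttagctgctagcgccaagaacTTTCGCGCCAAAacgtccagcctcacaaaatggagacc
Mcm6 (chr1:128359719-128359841, minus strand): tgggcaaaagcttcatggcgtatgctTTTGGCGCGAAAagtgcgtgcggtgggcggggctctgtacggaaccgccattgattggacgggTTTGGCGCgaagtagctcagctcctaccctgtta
Mcm7 (chr5:138172015-138172074, minus strand): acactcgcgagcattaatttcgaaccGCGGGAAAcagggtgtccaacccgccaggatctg
Pola1 (chrX:93632260-93632319, minus strand): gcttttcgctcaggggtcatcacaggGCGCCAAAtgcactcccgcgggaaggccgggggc
Rfc3 (chr5:151651209-151651244, minus strand): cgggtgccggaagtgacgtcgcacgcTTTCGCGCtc

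In Mcm5 a forward and a reverse match overlapped, and Mcm6 held 3 matches, of which 2 overlapped. The match of Cdc6 began at position -138 from the start site and that of Rfc3 at -10. The same letters without the first T, which include every match above, were in 16 of 37 windows (43.2%, against 7.89% of all windows). The CCAAT box, bound by NF-Y, was in 22 of 37 (59.5%, against 33.8%). The CHR element TTTGAA or TTCGAA, known from mitotic promoters, was in 6 of 37 (16.2%, against 17.1%). A match describes letters in this window and not a bound site. Of 11 genes that had a window and fell between 1 and 2 weeks, as described next, 2 held the E2F letters (Cdc6 and Uhrf1), and of 18 tested genes that did not pass, 6 did.

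Array medians lay between 5.57 and 5.63. The keratin genes Krt8 and Krt18, of simple epithelium, were bright (13.63 and 13.12 on average) and Epcam was at 7.05, while Cdh1, for E-cadherin, was below the filter at 3.67. Markers of other cells were also measured above the filter: 9 of 10 for macrophages and monocytes (Cd14 at 10.45, Itgam below the filter at 4.31), 5 of 6 for endothelium (Plvap at 8.62, Pecam1 below it at 4.39), 6 of 6 for lung epithelium (Scgb1a1 at 8.99) and 7 of 7 for fibroblasts and smooth muscle (Col3a1 at 10.14). Ptprc, the pan-leukocyte gene, was at 7.20. For beta-actin the 3' minus 5' probe set difference, a sign of RNA quality, was 1.20 on replicate 2 of 2-week vehicle and 0.38 to 0.50 elsewhere. For Gapdh the same difference was 0.92 on that array and -0.13 to -0.10 elsewhere. The BioB hybridisation control read 10.03 on replicate 1 of the 1-week group, against 8.74 to 9.02 elsewhere.

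Between 1 and 2 weeks in vehicle-treated mice the replication genes were lower as a group. Of 35 tested, 12 fell and 23 did not pass an adjusted p of 0.05 (limma over all 13090 genes tested), and all 35 differences were below 0. Over all genes tested 2.71% passed in this direction and 47.1% were below 0. The median difference was -0.52 log2 units, a 1.43-fold lower level, against 0.02 over all genes tested. In 34 of 35 genes both 2-week arrays read lower than both 1-week arrays, which held for 25.2% of all genes tested. In sorted bulk cells, fewer cells in S phase and less RNA per cell cannot be told apart.

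**Figure D1:**
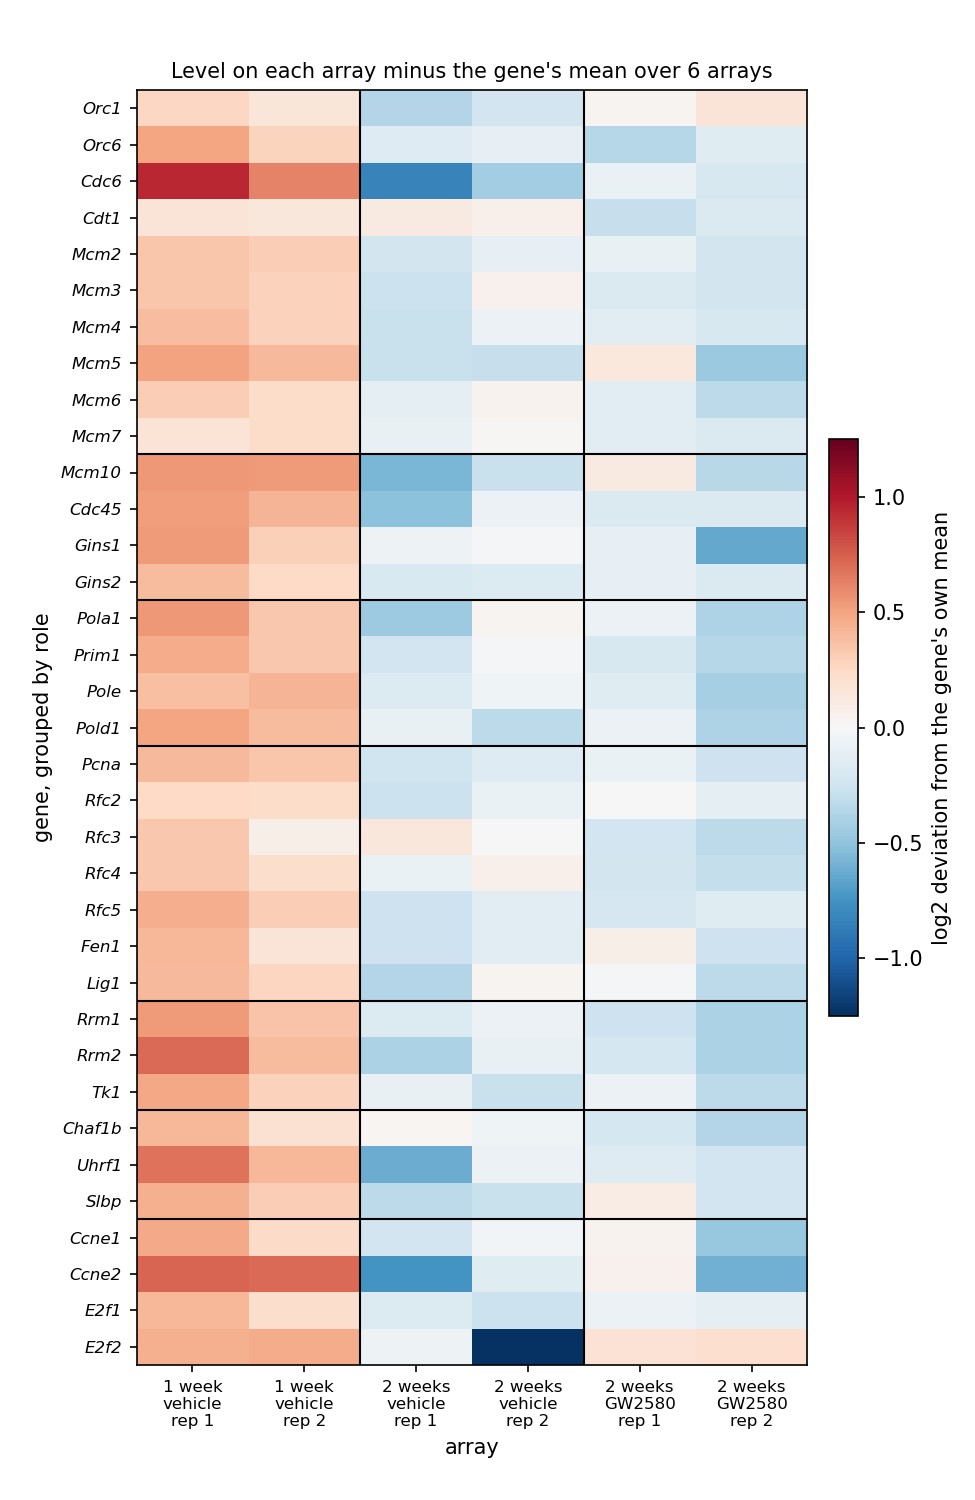
Each row is 1 of the 35 tested genes, grouped by role, and each column 1 of the 6 arrays; color gives the log2 level minus the gene's mean over the 6 arrays (red above, blue below). The 1-week columns are red in all rows, and the darkest blue is E2f2 on replicate 2 of 2-week vehicle, at 6.05.

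The count of genes that passed depended on single arrays, while the direction did not. With replicate 1 of 1 week left out, 0 genes passed (limma, smallest adjusted p 0.13, 22 of 35 at an unadjusted p under 0.05). Without its replicate 2 only Cdc6 passed. With replicate 1 of 2-week vehicle left out, 2 passed, Cdc6 and E2f2, and with its replicate 2 left out, 3 did, Cdc6, Cdc45 and Uhrf1. All 35 differences were below 0 in each of these fits, with medians from -0.61 to -0.46. Without replicate 1 of 2-week vehicle, E2f2 rested on a single reading of that group, 6.05 on replicate 2. The array left out read 7.22 for E2f2.

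Of 10 licensing genes 1 fell, Cdc6, and the median difference of the 10 was -0.50. Cdc6, the ATPase that brings the helicase to origins, read 8.28 and 7.97 at 1 week, 6.51 and 6.91 in 2-week vehicle and 7.26 and 7.14 with GW2580. The groups did not overlap, and at 2 weeks in vehicle the gene fell by 1.42 (SE 0.17), or 2.67-fold (limma adjusted p 0.0102). This was the largest difference among the 35 genes. Orc1, the ATPase subunit of the origin recognition complex that cycles with G1, read 7.07 and 6.97, then 6.44 and 6.57 in vehicle, and 6.84 and 6.98 with GW2580. Its time difference of -0.51 (SE 0.13, limma adjusted p 0.0562) missed the threshold, and its second probe set gave -0.62. Orc6, the smallest subunit of the complex, differed by -0.52 (SE 0.14).

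None of the 6 helicase subunit genes passed, and their differences ran from -0.74 to -0.24. Mcm4 read 10.57 and 10.47 at 1 week, 9.91 and 10.11 in 2-week vehicle and 10.05 and 9.98 with GW2580, a time difference of -0.51 (SE 0.13, limma adjusted p 0.0576). The other subunits differed by -0.74 (Mcm5), -0.49 (Mcm2), -0.42 (Mcm3), -0.30 (Mcm6) and -0.24 (Mcm7). In all 6 the 1-week arrays lay above the 2-week vehicle arrays. The calls of 3 of them depended on the setting. Mcm5 (limma adjusted p 0.0598) passed with only the 4 vehicle arrays (0.0215), with an intensity trend (0.0443) and with the replicate block (0.0377). Mcm2 and Mcm4 passed with the trend (limma adjusted p 0.0382 and 0.0425) and on averages over all probe sets of a gene (0.0293 and 0.0461). Cdt1, which loads the helicase with Cdc6 and is held in check by geminin, stayed nearest to 0 of all 35 genes. It read 10.92 and 10.91 at 1 week and 10.87 and 10.83 in 2-week vehicle, a difference of -0.06 (SE 0.12), and -0.05 on its second bright probe set. Cdt1 is described here because of these values.

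Of the genes that switch the loaded helicase on, 2 of 4 fell. Mcm10, a fork scaffold, read 8.78 and 8.77 at 1 week, 7.67 and 7.96 in 2-week vehicle and 8.35 and 7.89 with GW2580. It fell by 0.96 (SE 0.18, limma adjusted p 0.0292), while 2 dimmer probe sets, at 5.27 and 5.05, gave -0.06 and -0.34. Cdc45, a partner of the helicase in the moving fork, read 9.34 and 9.24, then 8.30 and 8.74, and 8.64 and 8.63 with GW2580. Its groups at 1 and 2 weeks did not overlap and it fell by 0.77 (SE 0.16, limma adjusted p 0.0367), against -0.01 on its second probe set, at 6.66. The GINS subunit genes did not pass. Gins2 read 9.21 and 9.07, then 8.63 and 8.64, and 8.72 and 8.63 with GW2580, a time difference of -0.50 (SE 0.12, limma adjusted p 0.0525). Gins1 differed by -0.46 (SE 0.19).

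Among polymerase genes Pold1, for the catalytic subunit of polymerase delta, which extends the lagging strand, passed. It read 9.13 and 9.04 at 1 week, 8.55 and 8.31 in 2-week vehicle and 8.56 and 8.26 with GW2580, and fell by 0.65 (SE 0.15, limma adjusted p 0.0458). Its second probe set, at 8.54, gave -0.27. Prim1, for the primase that starts each strand, read 9.56 and 9.43, then 8.86 and 9.08, and 8.89 and 8.74 with GW2580. Pole, for the leading-strand polymerase epsilon, read 8.35 and 8.39, then 7.80 and 7.91, and 7.82 and 7.55 with GW2580. Neither passed, at -0.52 (SE 0.14) and -0.51 (SE 0.14). Pola1, for the polymerase that extends the primer, differed by -0.65 (SE 0.19). In these 4 genes both 2-week groups lay below the 1-week arrays.

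The sliding clamp and 1 subunit of its loader fell. Pcna, the clamp that holds polymerases on DNA, read 13.14 and 13.07 at 1 week, 12.48 and 12.57 in 2-week vehicle and 12.65 and 12.47 with GW2580. It fell by 0.58 (SE 0.13, limma adjusted p 0.0399). Rfc5, of the loader, read 10.07 and 9.92, then 9.35 and 9.47, and 9.40 and 9.46 with GW2580, a fall of 0.59 (SE 0.13, limma adjusted p 0.0383). In both genes the 2-week groups lay together, below 1 week. Rfc2, another loader subunit, read 10.15 and 10.13, then 9.64 and 9.82, and 9.90 and 9.78 with GW2580, a time difference of -0.41 (SE 0.13). Rfc4 and Rfc3, of the same complex, differed by -0.29 (SE 0.13) and -0.14 (SE 0.14), and Rfc3 was the only gene of 35 whose 1-week and 2-week vehicle arrays overlapped. Fen1, the flap nuclease, and Lig1, the ligase that seals Okazaki fragments, differed by -0.48 (SE 0.16) and -0.50 (SE 0.18).

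Rrm1 and Rrm2, for subunits of ribonucleotide reductase, which makes deoxynucleotides, fell, while Rrm2b, for another small subunit and outside the 37 genes, differed by 0.09 (limma adjusted p 0.733). Rrm2, the regulated small subunit, read 12.47 and 12.16 at 1 week, 11.37 and 11.67 in 2-week vehicle and 11.54 and 11.36 with GW2580. It fell by 0.79 (SE 0.17, limma adjusted p 0.036), and its other probe sets gave -0.99 and -0.77. Rrm1, the large subunit, read 11.05 and 10.87, then 10.34 and 10.43, and 10.25 and 10.12 with GW2580, a fall of 0.57 (SE 0.13, limma adjusted p 0.0442). Neither gene's 1-week arrays overlapped with any 2-week array. Tk1, the thymidine kinase of S phase, read 10.70 and 10.51, then 10.12 and 9.94, and 10.15 and 9.89 with GW2580. Its difference of -0.57 (SE 0.15, limma adjusted p 0.0604) did not pass.

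Of the chromatin and histone genes, 2 of 3 tested fell. Uhrf1, which guides maintenance DNA methylation, read 10.06 and 9.80 at 1 week, 8.77 and 9.32 in 2-week vehicle and 9.22 and 9.15 with GW2580. It fell by 0.89 (SE 0.19, limma adjusted p 0.0389), and by 1.35 on its second probe set (unadjusted p 0.000101). Slbp, which binds the stem loop of histone mRNAs, read 10.88 and 10.74, then 10.10 and 10.15, and 10.52 and 10.19 with GW2580. It fell by 0.68 (SE 0.15, limma adjusted p 0.0384), and its second probe set gave -0.59. Chaf1b, the middle subunit of CAF-1, read 8.43 and 8.21, then 8.05 and 7.97, and 7.80 and 7.65 with GW2580. The 3 groups of Chaf1b did not overlap on this probe set, in the order 1 week, 2-week vehicle, GW2580, and its time difference was -0.32 (SE 0.14). The dimmer second probe set of Chaf1b, at 5.46, did not show this order. It gave -0.06 over time and 0.20 for GW2580 against vehicle.

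The genes that control the G1/S step had the second largest fall, in Ccne2. This cyclin E gene read 7.95 and 7.92 at 1 week, 6.47 and 7.06 in 2-week vehicle and 7.27 and 6.62 with GW2580, and it fell by 1.16 (SE 0.25), or 2.24-fold (limma adjusted p 0.0379). Ccne1, the other cyclin E gene, differed by -0.49 (SE 0.19) and by -0.89 on its second probe set. E2f1, an activating E2F, read 8.28 and 8.09, then 7.69 and 7.59, and 7.79 and 7.75 with GW2580. E2f1 fell by 0.54 (SE 0.13, limma adjusted p 0.0486), just past the threshold. It passed in 1 of 6 alternatives that kept all its arrays, that with the replicate number as a block. Its second probe set, at 7.41, gave -0.26 (unadjusted limma p 0.134). E2f2, another activating E2F, read 7.73 and 7.75, then 7.22 and 6.05, and 7.47 and 7.50 with GW2580. The value of 6.05 is from replicate 2 of 2-week vehicle, the array with the high actin ratio. The difference of -1.10 (SE 0.32, limma adjusted p 0.079) did not pass and was -0.52 without that array, and the dim second probe set of E2f2, at 5.31, gave -0.35.

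**Figure D2:**
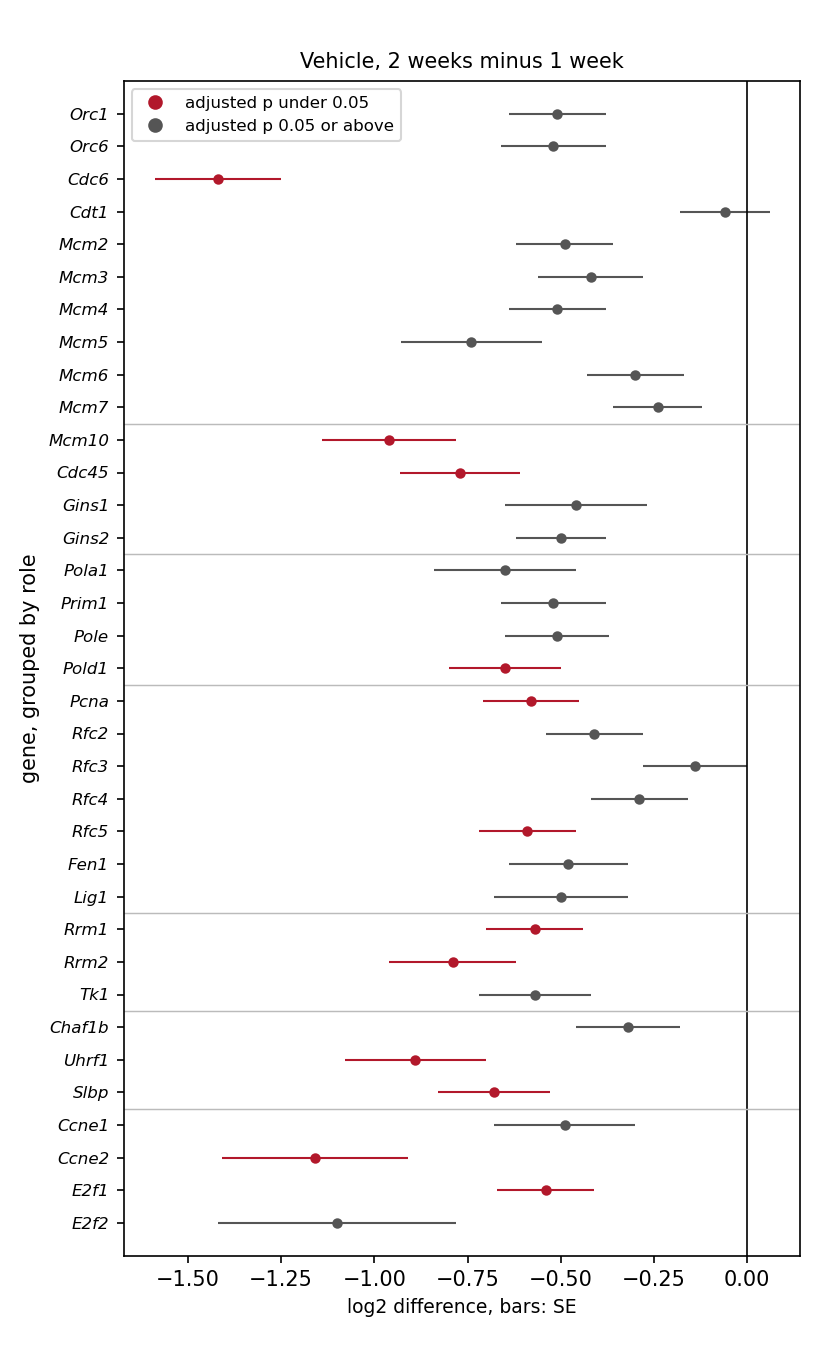
Points are log2 differences of 2-week minus 1-week vehicle arrays for 35 genes, with bars of 1 SE, in red where the limma adjusted p was under 0.05. All points lie left of 0, from Cdc6 at -1.42 to Cdt1 at -0.06.

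Other probe sets of the same genes bore on the direction. Of 33 further probe sets above the filter, 33 had a time difference below 0, with a median of -0.35. These share arrays and genes with the values above and are not further replicates.

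Setting GW2580 against vehicle after 2 weeks asked whether inhibiting the CSF1 receptor altered the replication genes of tumour cells. No gene of 35 passed in either direction (limma, smallest adjusted p 0.168), where 0.367% of all genes tested did. At an unadjusted limma p under 0.05 there were 5 of 35, where 2352 of all 13090 genes tested were. Of the 5, Orc1, Cdc6 and E2f2 were higher with GW2580 and Cdt1 and Rfc3 lower. The median difference was 0.00, against -0.05 over all genes tested, with 18 genes below 0 and 17 above. Over all genes tested 58.3% were below 0. With GW2580 8 of 35 genes read lower without overlap and 5 of 35 higher, where 31.5% and 18.3% of all genes tested did; the share of these genes was below the background in both directions.

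The genes with the smallest p were Orc1 and Cdc6, both higher with GW2580. From the values given above, Orc1 differed by 0.40 (SE 0.13, 95% interval 0.11 to 0.70) and Cdc6 by 0.49 (SE 0.17, 95% interval 0.09 to 0.89), with limma adjusted p of 0.168 and 0.204. The second probe set of Orc1 went the other way, at -0.24 (unadjusted p 0.106). E2f2 differed by 0.84 (SE 0.32, 95% interval 0.12 to 1.57), and by 0.26 without replicate 2 of 2-week vehicle, its low array. Cdt1, at 10.48 and 10.58 with GW2580, differed by -0.32 (SE 0.12). Rfc3 read 8.99 and 8.73 at 1 week, 8.79 and 8.66 in 2-week vehicle and 8.41 and 8.33 with GW2580, a difference of -0.35 (SE 0.14). Of the 33 further probe sets above the filter, 21 were below 0 with GW2580 and 11 above, with a median of -0.10. Those with an unadjusted p under 0.05 were of Uhrf1 (0.81, p 0.00254) and Slbp (0.76, p 0.00217), higher with GW2580, and of Mcm10 (-0.66, p 0.00108) and Rfc4 (-0.40, p 0.0113), lower. The brighter probe sets of these genes gave 0.14, 0.23, 0.31 and -0.25. For Pcna the difference was 0.03 (95% interval -0.26 to 0.33), for Mcm2 0.01 (-0.28 to 0.30) and for Rrm2 -0.07 (-0.45 to 0.31), so differences up to these bounds are within the error of 2 arrays a group. Leaving out single arrays gave a median difference of -0.121 without replicate 1 of 2-week vehicle and 0.073 without its replicate 2, and of -0.135 without replicate 1 of GW2580 and 0.116 without its replicate 2. With arrays set to a common 75th percentile it was 0.023, and 14 genes lay below 0.

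The GW2580 arrays were also set against the 1-week arrays. Both this and the time comparison use the same 1-week arrays, and both GW2580 comparisons the same GW2580 arrays. No gene of 35 passed (limma, smallest adjusted p 0.057, for Rrm1), where 0.512% of all genes tested did. At an unadjusted limma p under 0.05 there were 33 of 35, where 2224 of all 13090 genes tested were. All 35 differences were below 0, as were 54.2% of all genes tested, with a median of -0.56 against -0.02 over all genes tested. In 34 genes both GW2580 arrays read below both 1-week arrays, as in 27.9% of all genes tested. Orc1, at -0.11 (SE 0.13), was the exception on its brightest probe set. Its second probe set, at 6.24, gave -0.86 (unadjusted limma p 0.000199). The genes with the smallest p were Rrm1 at -0.77 (SE 0.13, limma adjusted p 0.057) and Cdc6 at -0.93 (SE 0.17, limma adjusted p 0.0703). With a variance prior that follows intensity Rrm1, Rrm2 and Pcna passed, and without replicate 1 of GW2580 Mcm5 and Gins1 did. Without replicate 1 of 1 week, 24 genes had an unadjusted p under 0.05 (limma, smallest adjusted p 0.406), and the median was -0.485 with all 35 below 0.

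**Figure D3:**
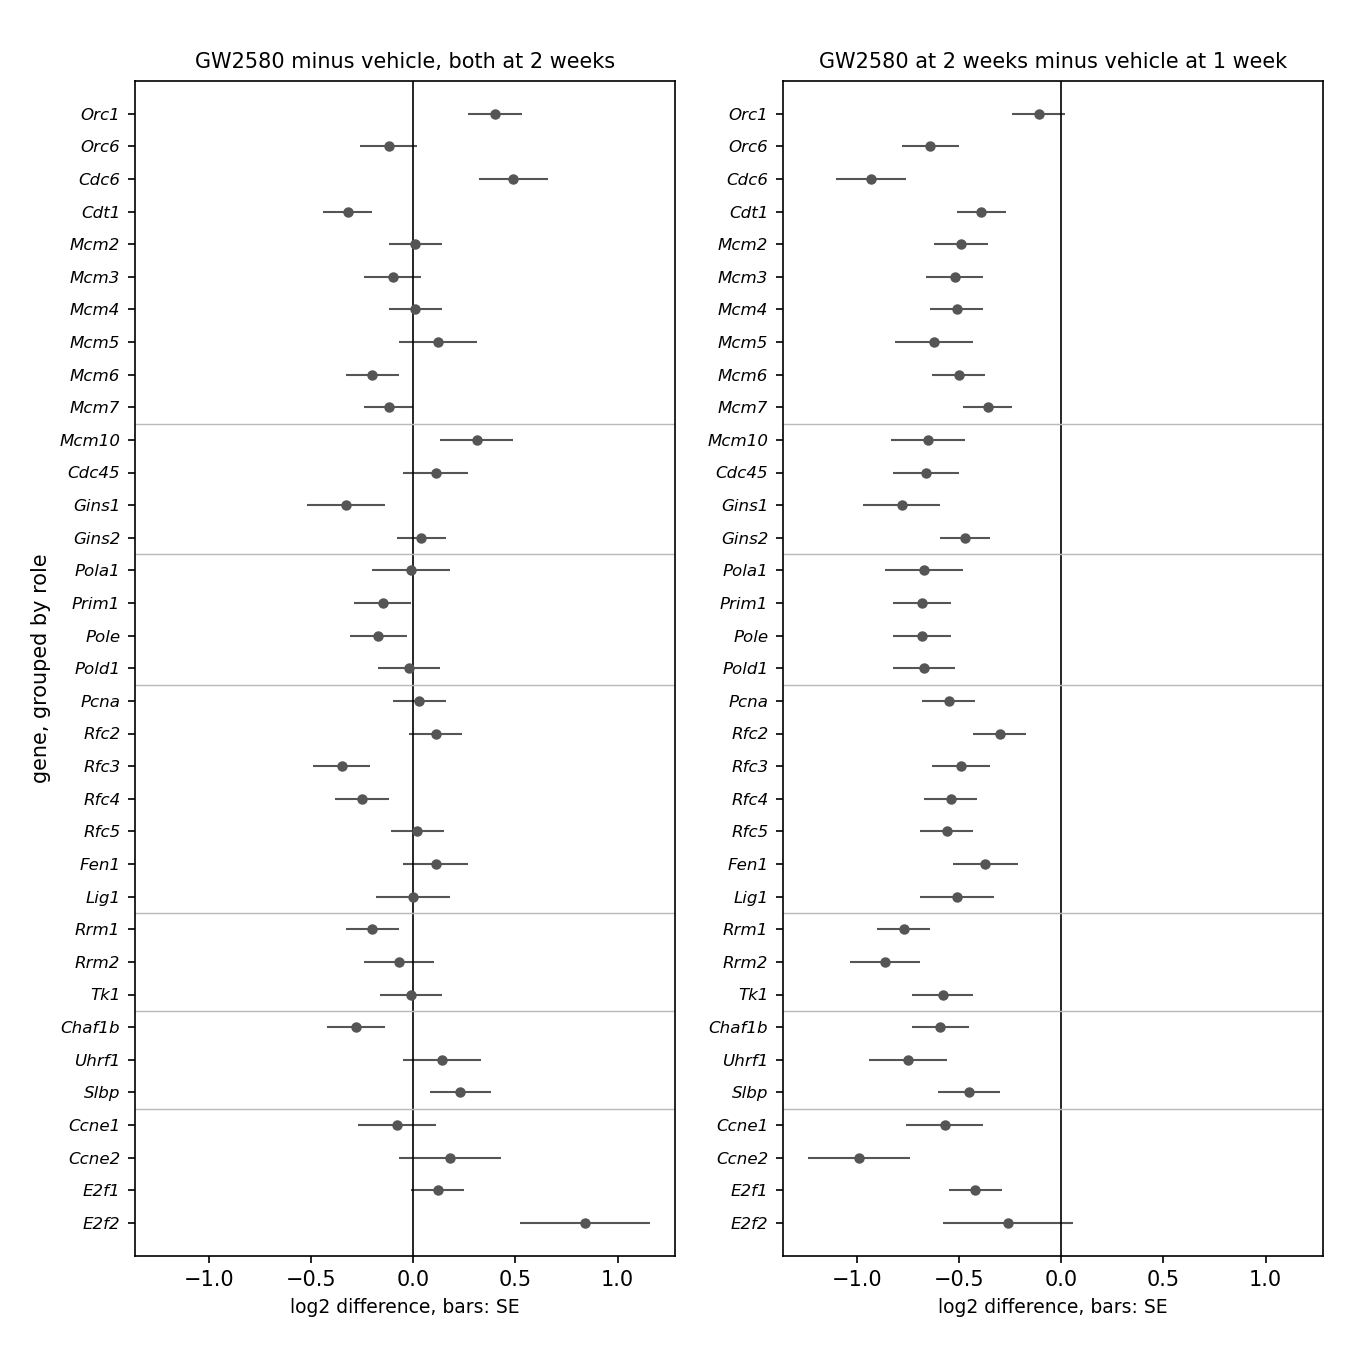
Points are log2 differences for 35 genes with bars of 1 SE, left for GW2580 minus vehicle at 2 weeks and right for GW2580 at 2 weeks minus vehicle at 1 week. On the left 17 points lie above 0 and 18 below, with E2f2 highest at 0.84; on the right all 35 lie below 0.

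Array by array, the genes moved together. Each gene was centred on its own mean over the 6 arrays, and these deviations were averaged over the 35 genes. The mean deviation was 0.45 and 0.32 on the 1-week arrays, -0.26 and -0.14 on the 2-week vehicle arrays and -0.10 and -0.27 on the GW2580 arrays. Replicate 1 of the 1-week group was the highest array for 32 of 35 genes. The lowest was replicate 1 of 2-week vehicle for 15 genes and replicate 2 of GW2580 for 16. The genes also moved together within groups: replicate 1 was higher in 32 genes at 1 week and in 30 with GW2580, while replicate 2 was higher in 27 in 2-week vehicle. Over all genes tested replicate 1 was higher in 45.1% of genes at 1 week, in 39.3% with GW2580 and in 42.4% in 2-week vehicle. The 35 genes are therefore not independent measurements of a condition.

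**Figure D4:**
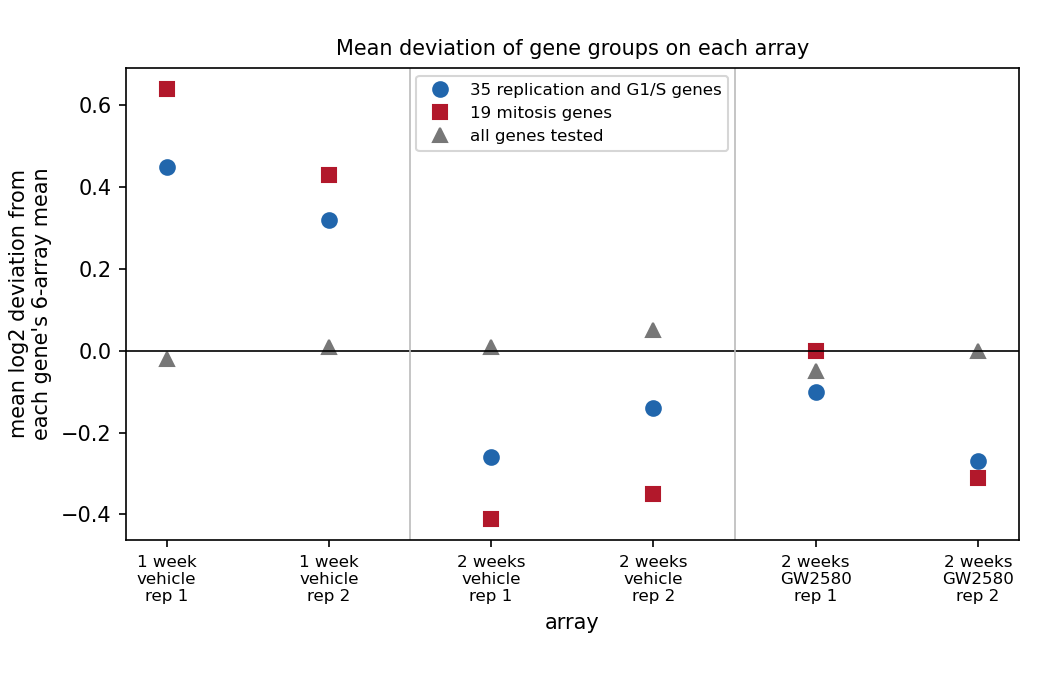
For each of the 6 arrays, points give the mean log2 deviation from each gene's 6-array mean over 35 replication and G1/S genes (circles), 19 mitosis genes (squares) and all genes tested (triangles). The circles are at 0.45 and 0.32 on the 1-week arrays and between -0.27 and -0.10 on the other 4.

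Markers of tumour epithelium and of other cells were also compared between the groups, and few of them passed. All 5 tested tumour epithelium markers were lower at 2 weeks in vehicle, with a median of -0.23, and none passed. Of 5 endothelium markers tested 3 were below 0 and 2 above over time, and none passed. Among them Plvap differed by -1.20 over time and by 1.54 with GW2580 against vehicle, and Tie1 by 0.86 and -0.52. All 7 fibroblast and smooth muscle markers were lower at 2 weeks in vehicle, with a median of -0.81, and none passed. Their mean level was 8.49 and 7.50 on the 1-week arrays, 7.08 and 7.11 in 2-week vehicle and 7.66 and 6.80 with GW2580, and none was below the filter. Ptprc fell by 0.61, from 7.57 and 7.73 to 6.97 and 7.11, with 6.98 and 6.85 under GW2580. All 5 lymphocyte and NK cell markers tested were below 0 over time, with a median of -0.07 and Cd3d lowest at -0.55. With GW2580 against vehicle 2 of these 5 were below 0 and 3 above, and none passed in either comparison. The erythroid and platelet markers Alas2 and Pf4 differed by -0.61 and 0.57 over time, and neither passed. Of 6 lung epithelium markers 1 rose between 1 and 2 weeks and 5 differences were above 0, while Scgb1a1, of club cells, differed by -3.16. With GW2580 against vehicle 2 of the 6 fell and 5 were below 0, with a median of -0.91. No neutrophil marker of 4 passed, and they did not move together. S100a8 differed by 1.76 over time and by -1.80 with GW2580 against vehicle, with GW2580 arrays at 6.93 and 9.14. In the same 2 comparisons S100a9 differed by 1.09 and -0.75, Mmp9 by -0.58 and 0.58 and Cxcr2 by 0.00 and 0.07. The mean of 10 macrophage and monocyte markers lay between 7.06 and 7.22 on the 4 vehicle arrays and was 6.71 and 7.20 with GW2580. None of 9 tested passed. Over time 5 of them were below 0 and 4 above, with a median of -0.08 and Cd68 highest at 0.98. With GW2580 against vehicle 7 were below 0 and 2 above, with a median of -0.13, from C1qa at -0.73 to Lyz2 at 0.32. The part of these cell types in the replication gene differences was not tested, nor was that of the actin, Gapdh and BioB readings.

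Other genes of replication and the G1/S step, formed a list of 75. Of 73 tested, 12 fell, 1 rose and 60 did not pass, with a median of -0.23 between 1 and 2 weeks. Of all 13090 genes tested 355 fell and 489 rose. Among fork genes 6 of 20 fell, among them Dscc1 and Chtf18, of an alternative clamp loader, which fell by 0.97 (SE 0.14) and 0.84 (SE 0.18). Pole2, a polymerase epsilon subunit, fell by 0.65 and Dna2, a flap nuclease, by 0.72. Dck, which salvages deoxycytidine, fell by 0.82, alone among 7 nucleotide genes. The histone chaperone genes Asf1b and Nasp fell by 0.91 and 0.61, the only 2 of 8 chromatin genes. No licensing or initiation gene of 16 passed (limma, 6 at an unadjusted p under 0.05, where 3088 of all 13090 genes tested were). Gins3, a GINS subunit, differed by -0.46 and Dbf4, which activates Cdc7, by -0.59.

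Of 22 G1/S control genes outside the 37, 3 fell and 1 rose. E2f7, a repressive E2F, read 8.36 and 8.40 at 1 week, 7.20 and 7.28 in 2-week vehicle and 7.77 and 7.29 with GW2580, and fell by 1.14 (SE 0.17, limma adjusted p 0.016). Skp2, which targets p27 for destruction, and Mybl2, a Myb factor of cycling cells, fell by 0.78 and 0.69. Tfdp2, a dimer partner of E2F, rose by 0.79 (SE 0.16, limma adjusted p 0.0338). With GW2580 against vehicle no gene of the 73 passed (limma, smallest adjusted p 0.0681). At an unadjusted limma p under 0.05 there were 11 of 73, where 2352 of all 13090 genes tested were. Against 1 week Dscc1 alone passed, at -1.01 (limma adjusted p 0.0324).

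Mitosis genes were set beside the replication genes as the other arm of the cell cycle. Of 19 tested, 16 fell between 1 and 2 weeks in vehicle and 3 did not pass, with a median of -0.96. Of all genes tested 2.71% fell. The spindle kinase genes Aurka, Plk1 and Ttk fell by 1.32, 1.10 and 0.90, and Ube2c, for an enzyme that tags mitotic cyclins, by 1.32. With GW2580 against vehicle all 19 differences were above 0, as were 5464 of all 13090 genes tested. The median of the 19 was 0.21, and none passed (limma, smallest adjusted p 0.127). At an unadjusted limma p under 0.05 there were 3 of 19, where 2352 of all 13090 genes tested were. The replication genes had 17 of 35 above 0 in that comparison. Whether the lists differ from each other was not tested. On replicate 1 of GW2580 the mean deviation of the mitosis genes was 0.00 and that of the replication genes -0.10, and on replicate 2 they were -0.31 and -0.27.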

How the data were processed

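The authors deposited 1 table of RMA log2 values for 45101 probe sets on Affymetrix arrays; RMA is named in the submitters' processing notes, without a version. RMA corrects background, quantile-normalises arrays and summarises probe sets, so it hides a change common to most genes. Precision is limited by the number of arrays.

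Controls (64 probe sets) were dropped. Among the rest, 34945 had 1 gene symbol, 932 several and 9160 none in the platform annotation; 34741 matched the RefSeq gene table (GRCm38.p6) by gene identifier, which changed 0 symbols. Per gene the probe set with the highest mean was kept. Genes below the 40th percentile of mean level (4.97) were dropped, leaving 13090.

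Tests were limma 3.58.1 in R 4.3.3: a mean per group over all 6 arrays, eBayes without trend, 3 residual and 4.97 prior degrees of freedom, and Benjamini-Hochberg adjustment over 13090 genes. Errors are SE, and 95% intervals use the same fit. A permutation test of 2 arrays against 2 cannot go below a two-sided p of 0.333, so none was used. The fit was tested on simulated data with 200 of 13090 genes changed between 1 and 2 weeks, and recovered 10.2% of genes changed 1.5-fold, 76.7% changed 2-fold and 98.7% changed 4-fold. Other probe sets were fitted over all non-control probe sets.

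The 37 genes and the lists were chosen with earlier results of these data known. Every gene was named. Values on every array are given for up to 3 genes per role with the smallest time p, and for 2 per GW2580 comparison. Of other lists, up to 4 genes that passed are named, or 2 where none did. Same-numbered replicates did not pair in the vehicle comparison (correlation of deviations 0.002), nor for GW2580 with 2-week vehicle (0.009); with 1 week it was 0.292.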

Additional observations from a re-analysis of the deposited data

How the results depend on the processing

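Between 1 and 2 weeks, 12 to 15 genes fell under the 6 alternatives that kept all arrays of the comparison (no filter, a common 75th percentile, only the 4 arrays compared, an intensity trend, all probe sets averaged, replicate block), and all differences stayed below 0. Leaving out single arrays gave 0 to 13. With the replicate block, where numbers are shared but pairing was not borne out, 15 fell. Averaged probe sets lost Mcm10, Cdc45, Rrm1, Slbp and E2f1 and gained Orc1, Mcm2, Mcm4, Gins2, Fen1 and E2f2. For Rrm1, Slbp and E2f1 the average took in a probe set below the filter, at 3.30, 3.24 and 4.72. With GW2580 against vehicle 0 passed under every alternative run, and the median difference ran from -0.135 to 0.116 with single arrays left out. Against 1 week, 3 fell with an intensity trend, 1 with the replicate block (Rrm1) and 0 to 2 with single arrays left out. The causes were not tested. A group left with 1 array was assumed to vary like the others. With 2 arrays a group and 200 genes changed, the simulation recovered 10.2% of 1.5-fold changes. The time comparison called more genes, 355 lower and 489 higher, so that share need not hold there.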

Other observations

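Subunits of the same complex differed in the size of their change between 1 and 2 weeks in vehicle-treated mice; these genes were picked after their values were seen, and differences between subunits were not tested. In the origin recognition complex Orc1 and Orc6 differed by -0.51 and -0.52, while Orc2, Orc3, Orc4 and Orc5 differed by 0.13, 0.06, -0.21 and 0.04. In the clamp loader Rfc5 fell by 0.59, and Rfc2, Rfc4 and Rfc3 differed by -0.41, -0.29 and -0.14. Rfc1, the large subunit, differed by 0.39 (limma adjusted p 0.137). Of polymerase epsilon Pole2 fell by 0.65 and Pole differed by -0.51, but Pole3 and Pole4, small histone-fold subunits, differed by 0.24 and -0.31. Of polymerase delta Pold1 fell by 0.65, and Pold2, Pold3 and Pold4 differed by -0.11, -0.23 and -0.56. Rrm2 fell by 0.79 and Rrm2b, the p53-inducible small subunit of ribonucleotide reductase, differed by 0.09. Among E2F genes E2f1 and E2f7 fell by 0.54 and 1.14, and the second probe set of E2f1 gave -0.26. E2f2 and E2f8 did not pass, at -1.10 and -0.56 (limma adjusted p 0.079 and 0.0758), and E2f3, E2f4 and E2f5 differed by -0.03, -0.10 and -0.01.

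Among brakes and drivers of G1, the CDK inhibitor genes Cdkn1a and Cdkn1b differed by 0.10 and 0.37, the cyclin D genes Ccnd1, Ccnd2 and Ccnd3 by -0.35, -0.55 and -0.42, and the kinase genes Cdk4 and Cdk6 by 0.07 and -0.17. The pocket protein genes Rb1 and Rbl2 differed by 0.47 and 0.65 and Rbl1 by -0.49. None of these passed the limma test (adjusted p 0.0611 for Rbl2, the smallest).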
